A study of Macaca mulatta with 6 samples.

Results

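The heat shock and unfolded protein response genes are a set of 58 chaperones, co-chaperones and stress regulators, chosen by name with earlier results of these data known. Of these, 49 had an identifier in the rhesus gene table, under 51 identifiers because HSPE1 has 3. A mean of 10 or more normalized counts over the 6 libraries was required for testing, and 50 identifiers (48 genes) reached it, of 16595 that did in the whole table of 23191. TRIB3 fell short of that level. HSPA1A, HSPA1B, HSPA2, HSPB1, HSP90AA1, DNAJB4, DNAJB9, DNAJC5 and ATF4 had no identifier paired with their symbol and were not analysed here, so the stress-inducible cytosolic HSP70 genes and ATF4 itself are outside what follows. Polyadenylated RNA was sequenced from cells labelled as purified cortical neurons of male Macaca mulatta 3 to 4 years of age, in 3 morphine libraries and 3 saline libraries. Morphine, an opioid that acts mainly at the mu receptor, was given by 3 subcutaneous injections daily over 90 days, starting at 3 mg/kg, stepping through 6, 9 and 12 mg/kg and reaching 15 mg/kg on day 29. Saline controls had injections on the same schedule, at 0.5 mL/kg.

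Cells keep their proteins folded with chaperones in each compartment. In the cytosol, HSP70 proteins work with J-domain partners and exchange factors, HSP90 takes over kinases and receptors, and the TRiC chaperonin folds actin and tubulin, while heat shock factors raise these genes when misfolded protein builds up. In the endoplasmic reticulum (ER), HSPA5, HSP90B1, lectins and disulfide isomerases fold secreted and membrane proteins, and an overload activates the sensors ATF6, ERN1 and EIF2AK3, which raise ER chaperones, degradation factors and, through ATF4, genes of amino acid supply and cell death. In neurons HSPA8 also strips the clathrin coat from synaptic vesicles, with DNAJC6 as its partner.

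Values are normalized counts, reads divided by a size factor for each library, so they compare a gene between libraries but not the RNA amounts of 2 genes. Levels and list sums below are of counts, and the genes with the highest counts weigh most in a sum. Recovered depth was between 31238653 and 36345095 reads per library. A gene is said to rise or fall where limma on log2(normalized count + 1) gave a Benjamini-Hochberg adjusted p under 0.05 over all genes tested, and fold changes are morphine over saline on that log2 scale. The protocol names 4 monkeys, 2 in each group, and 1 code in the labels is shared by every library of a group, so at least 2 libraries of each group, and possibly all 3, share an animal. The p-values therefore measure the spread between libraries, are too small as tests over animals, and differences between animals cannot be told apart from morphine.

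With morphine, more of these chaperone genes were lower than higher. Of the 50 identifiers tested, 11 fell and 2 rose, which is 26.0%, against 27.9% of all genes tested, 15.0% falling and 12.9% rising. Members had higher counts than the average gene, and 38 of the 50 had a mean of 1000 or more. Among all genes of that level 38.4% were called, 21.7% falling and 16.7% rising, and all 13 called members belonged to this class. Of those 38, 34.2% were called, so the share of members called lay near the background on either count. The median log2 fold change was -0.11 over the members and 0.01 over all genes tested. Changes were modest: the median absolute log2 fold change of the called members was 0.33, against 0.49 for all called genes, and only HERPUD1 and HSPA13 passed 1.5 fold. The 0.49 covers called genes of every count level and was not matched to the higher counts of the members. Morphine and saline libraries did not overlap for 26 of the 50 identifiers, 5 with morphine above and 21 with morphine below, against 48.7% of all genes tested, 24.1% above and 24.6% below. On the recovered reads edgeR called 3 rises and 12 falls among the members, against 34.0% of all genes, 16.3% rising and 17.7% falling. DESeq2 called 4 rises and 16 falls, against 36.8% of all genes, 18.0% rising and 18.9% falling.

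Without morphine replicate 1, 8 members fell and 0 rose, and without morphine replicate 2, 6 fell and 1 rose. Without morphine replicate 3 or saline replicate 3, 7 fell and 1 rose, without saline replicate 1, 7 fell and 2 rose, and without saline replicate 2, 7 fell and 0 rose. Over all genes tested, these fits gave 1464 to 1684 falls and 1072 to 1497 rises, against 2488 and 2143 with all 6 libraries. The falls of HSPA8, DNAJA1, HSPA13, HSP90B1 and CANX passed in all 6 of these fits.

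**Figure D1:**
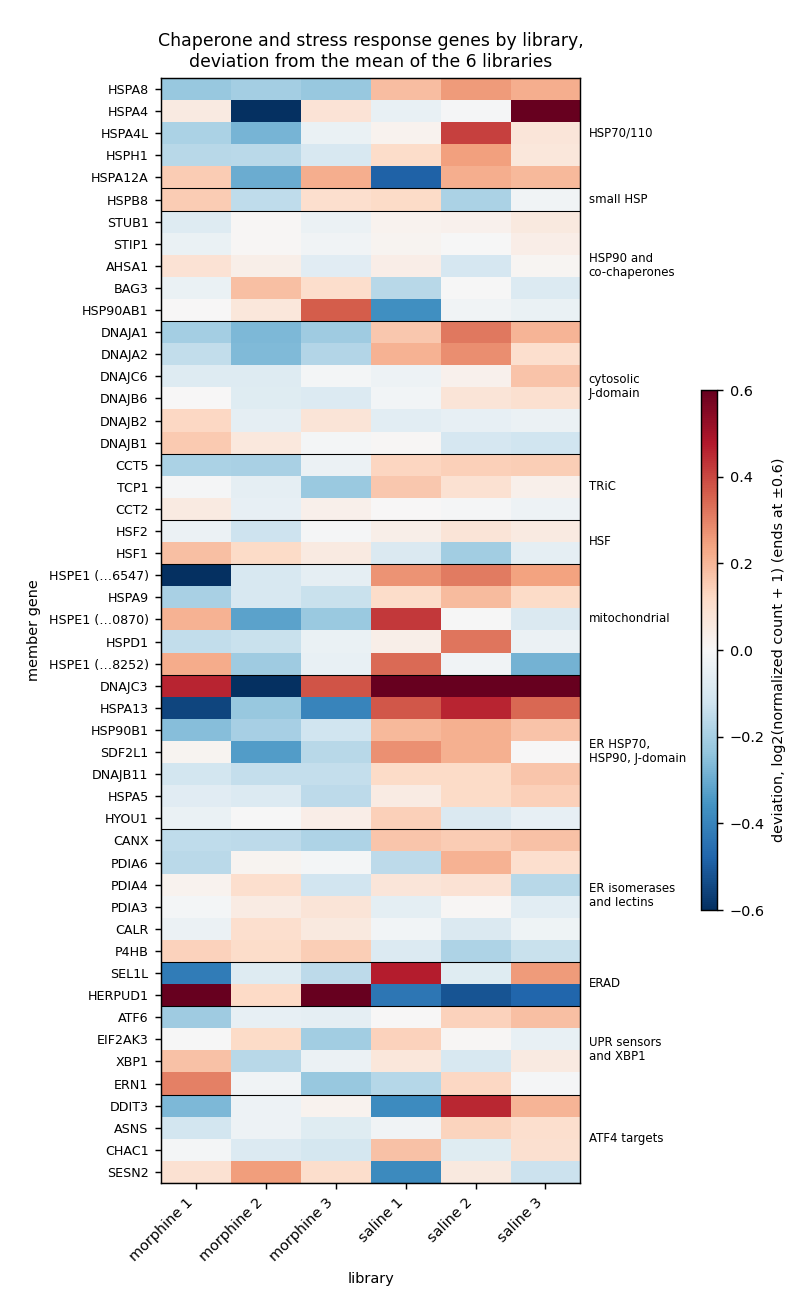
Deviation of each member's log2(normalized count + 1) from its mean over the 6 libraries, with members in rows by role and libraries in columns, morphine left of saline; red is higher and blue lower, and colours end at ±0.6. HSPA8, DNAJA1, HSP90B1 and CANX are blue in all 3 morphine libraries and red in all 3 saline libraries, HERPUD1 shows the reverse, and DNAJC3 is low in morphine replicate 2.

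Cell type markers were also read, beside 27.9% called of all genes tested and 38.4% of genes with a mean of 1000 or more. Called shares were 58.3% to 71.4% for the pan-neuronal, astrocyte, microglia, oligodendrocyte, oligodendrocyte precursor, endothelial and mural, and leptomeningeal lists. For inhibitory neuron markers 40% were called, for immediate early genes 23.1% and for excitatory neuron markers 18.2%. Among the 14 pan-neuronal markers tested, 7 fell and 3 rose, and the list summed to 233175 to 237323 normalized counts in morphine and 288371 to 299220 in saline libraries. Of 12 astrocyte markers 6 fell and 2 rose (388237 to 393469 in morphine and 415147 to 436578 in saline libraries), and of 9 microglia markers 4 rose and 2 fell (9840.1 to 10429.9 in morphine and 7284 to 7816 in saline libraries). Rises and falls numbered 3 and 3 for 9 oligodendrocyte markers, 4 and 0 for 6 precursor markers of that lineage, 3 and 4 for 12 markers of endothelial and mural cells, and 4 and 1 for 8 of leptomeningeal fibroblasts. They numbered 0 and 2 for 11 excitatory neuron markers, 3 and 1 for 10 of inhibitory neurons, and 0 and 3 for 13 immediate early genes. Where limma gave 0, edgeR and DESeq2 gave 0 too, and at an unadjusted p under 0.05 limma gave 0 falls of the precursor markers, 1 rise of the excitatory markers and 0 of the immediate early genes. Whichever library was left out, falls numbered 6 or 7 for the pan-neuronal and 6 for the astrocyte list, and rises 4 for the microglia list. Some counts were lower in some or all of these fits. Rises numbered 0 or 1 for pan-neuronal, 1 or 2 for oligodendrocyte, 2 for precursor and 1 or 2 for endothelial and mural markers. Falls numbered 0 to 2 for oligodendrocyte, 1 or 2 for microglia, 0 for leptomeningeal and 0 or 1 for excitatory markers. Immediate early genes gave 1 or 2 falls. Astrocyte and inhibitory rises numbered 2 or 3, and leptomeningeal rises 4 or 5. Endothelial and mural falls stayed at 4 and inhibitory falls at 1. No marker tested was at 0 in any library, so transcripts of every marker list were detected. Oligodendrocyte markers summed to 267589 to 269941 in morphine and 261655 to 266246 in saline libraries. Although the cells are labelled as purified neurons, astrocyte markers summed to more counts than pan-neuronal markers in every library. Such sums do not compare RNA amounts between lists. Whether cells of each type were present, and whether the changes of the chaperone genes arose in neurons, was not tested. The part of the marker shifts in the changes of the chaperone genes was not tested. In bulk RNA, fewer cells of a type and less RNA per cell cannot be told apart.

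The constitutive cytosolic HSP70, HSPA8, was lower with morphine, and so was its exchange factor HSPH1. HSPA8 (ENSMMUG00000004696) had 18788, 19118 and 18824 normalized counts in the morphine libraries, against 25076, 26333 and 25587 in the saline libraries. The groups lay far apart, with little spread within either. It fell by 0.44 ± 0.0475 (SE) on the log2 scale, to 0.737 of its saline level, with a limma adjusted p of 0.00485. HSPA8 has processed copies in primate genomes that can share reads. HSPH1 (ENSMMUG00000013707), of the HSP110 family, had 3281, 3291 and 3444 normalized counts with morphine, against 3979, 4372 and 3863 with saline. Every morphine value was lower than every saline value, but HSPH1 fell by only 0.28 ± 0.0669 (limma adjusted p = 0.0326) and missed the threshold whichever library was left out (limma adjusted p from 0.0507 to 0.0973).

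The other 3 HSP70 relatives among the members did not pass. HSPA4L, a testis and brain relative of HSPH1, had 971, 912 and 1077 normalized counts with morphine and 1122, 1471 and 1164 with saline, without overlap (log2 fold change -0.34 ± 0.13, limma adjusted p = 0.114), and passed in DESeq2 (adjusted p = 0.00914). HSPA4, a further exchange factor of HSP70, overlapped between groups: it had 2368, 1403 and 2421 normalized counts with morphine, against 2216, 2270.3 and 3509.7 with saline. HSPA12A, a divergent HSP70 of the brain, had a log2 fold change of 0.05 ± 0.249. Small heat shock proteins hold misfolded clients until HSP70 takes them over. The member HSPB8, which acts with BAG3 in the removal of aggregates, had 1526, 1232 and 1468 normalized counts in morphine and 1484, 1201 and 1349.9 in saline libraries. Its groups overlapped fully (log2 fold change 0.07 ± 0.121). Among relatives outside the set HSPB6 fell by 0.39 (limma adjusted p = 0.0207) and HSPB3 by 1.00 (limma adjusted p = 0.047). HSPB6 passed in 2 of the 6 fits without 1 library (limma adjusted p from 0.0242 to 0.0686) and HSPB3 in 1 (0.0222 to 0.128). HSPB3 had a mean of only 36.5 normalized counts and did not pass in edgeR (adjusted p = 0.0593) or in DESeq2 (adjusted p = 0.0664). CRYAB, the small heat shock protein of glia and lens, had a log2 fold change of 0.07 (limma adjusted p = 0.387).

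J-domain proteins bring clients to HSP70 and set off its ATP hydrolysis. Of the 6 cytosolic J-domain members tested, DNAJA1 and DNAJA2 fell and the other 4 did not pass. DNAJA1 (ENSMMUG00000007740) had 6646, 6350.3 and 6604 normalized counts with morphine, against 8559.9, 9526 and 8801 with saline. It fell by 0.45 ± 0.0619 on the log2 scale (limma adjusted p = 0.00798), nearly the same size as its partner HSPA8. DNAJA2 (ENSMMUG00000002247) had 4387, 4045 and 4296 normalized counts with morphine, against 5613, 5895 and 5212 with saline. Neither gene had overlapping groups. DNAJA2 fell by 0.39 ± 0.0696 (limma adjusted p = 0.0156) and did not pass without morphine replicate 2 (limma adjusted p = 0.0543). DNAJB1, the main stress-inducible J-domain protein, had 3433, 3220.1 and 3049.7 normalized counts in morphine and 3091, 2872 and 2836 in saline libraries, with overlap at the lowest morphine value (log2 fold change 0.14 ± 0.0699, limma adjusted p = 0.193). DNAJB2, DNAJB6 and DNAJC6, the vesicle uncoating partner of HSPA8, overlapped between groups, with log2 fold changes of 0.10, -0.10 and -0.11.

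**Figure D2:**
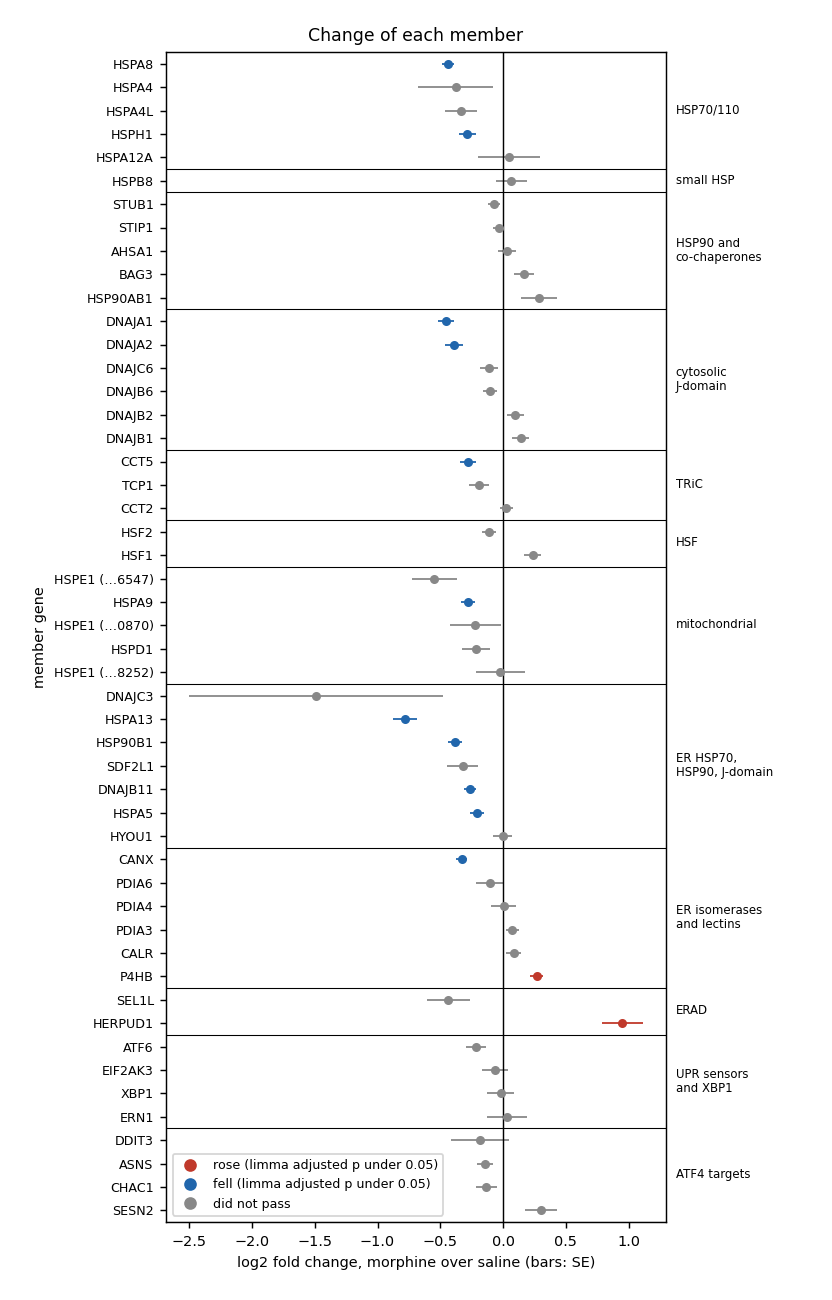
Log2 fold change, morphine over saline, of the 50 identifiers tested, with bars of 1 SE from limma, in rows by role; blue points fell, red points rose at an adjusted p under 0.05, and grey points did not pass. Most coloured points lie between -0.5 and 0, HERPUD1 stands at 0.95, and DNAJC3 has the widest bar.

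Among the members of the cytosolic HSP90 system 0 of 5 rose and 0 fell in limma, also at an unadjusted p under 0.05, and in edgeR, and DESeq2 called 1 rise. HSP90AB1, the constitutive cytosolic HSP90, had 1723, 1803 and 2209 normalized counts in morphine libraries, against 1333, 1692 and 1670.5 in saline libraries. The groups did not overlap, but the lowest morphine value stood close to the highest saline value (log2 fold change 0.29 ± 0.143, limma adjusted p = 0.193), while DESeq2 (adjusted p = 0.0199) and the authors' deposited table (adjusted p = 0.0289) called it higher and edgeR did not. Processed copies of HSP90AB1 can share its reads. The HSP90 co-chaperones STIP1, which bridges HSP70 and HSP90, and AHSA1, which speeds the HSP90 ATPase, had log2 fold changes of -0.04 ± 0.0466 and 0.03 ± 0.07. STUB1, a ubiquitin ligase for chaperone clients, had -0.07 ± 0.0498, and BAG3, which hands clients to autophagy, had 0.17 ± 0.0819.

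Of the 3 TRiC subunits among the members, CCT5 (ENSMMUG00000020112) fell. It had 2349, 2347 and 2621 normalized counts with morphine, against 2933, 2961 and 2974 with saline, and all saline values were closely grouped above the morphine ones. The fall was by 0.28 ± 0.0636 (limma adjusted p = 0.03) and it passed without morphine replicate 3 but in none of the other 5 fits without 1 library (limma adjusted p = 0.0889 and 0.093 without morphine replicate 1 or 2, and 0.0748, 0.0801 and 0.081 without saline replicate 1, 2 or 3). TCP1 had a log2 fold change of -0.19 ± 0.0795 (limma adjusted p = 0.136), without overlap, and was called by DESeq2 (adjusted p = 0.0104), while CCT2 had 0.03 ± 0.052.

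HSF1 (ENSMMUG00000014728), the factor that switches on heat shock genes, had 2916, 2783 and 2673 normalized counts in morphine and 2421, 2224 and 2473 in saline libraries. All its morphine values were above all saline values, in the opposite direction to HSPA8, DNAJA1 and HSPH1. HSP90AB1, BAG3 and DNAJB1 had log2 fold changes above 0 like HSF1 (0.29, 0.17 and 0.14), without passing in limma. Its log2 fold change of 0.23 ± 0.0675 missed the threshold in limma (adjusted p = 0.0555) and passed with upper-quartile scaling (0.0467), with a minimum mean of 50 (0.0391), in edgeR (adjusted p = 0.0171) and in DESeq2 (adjusted p = 0.0019). HSF2, which can pair with HSF1, had 1033, 972 and 1053 normalized counts with morphine and 1083, 1117 and 1099 with saline (log2 fold change -0.11 ± 0.0541, limma adjusted p = 0.189). HSF1 activity is set mainly by the protein's release from chaperones and its assembly into trimers, which RNA levels do not show.

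**Figure D3:**
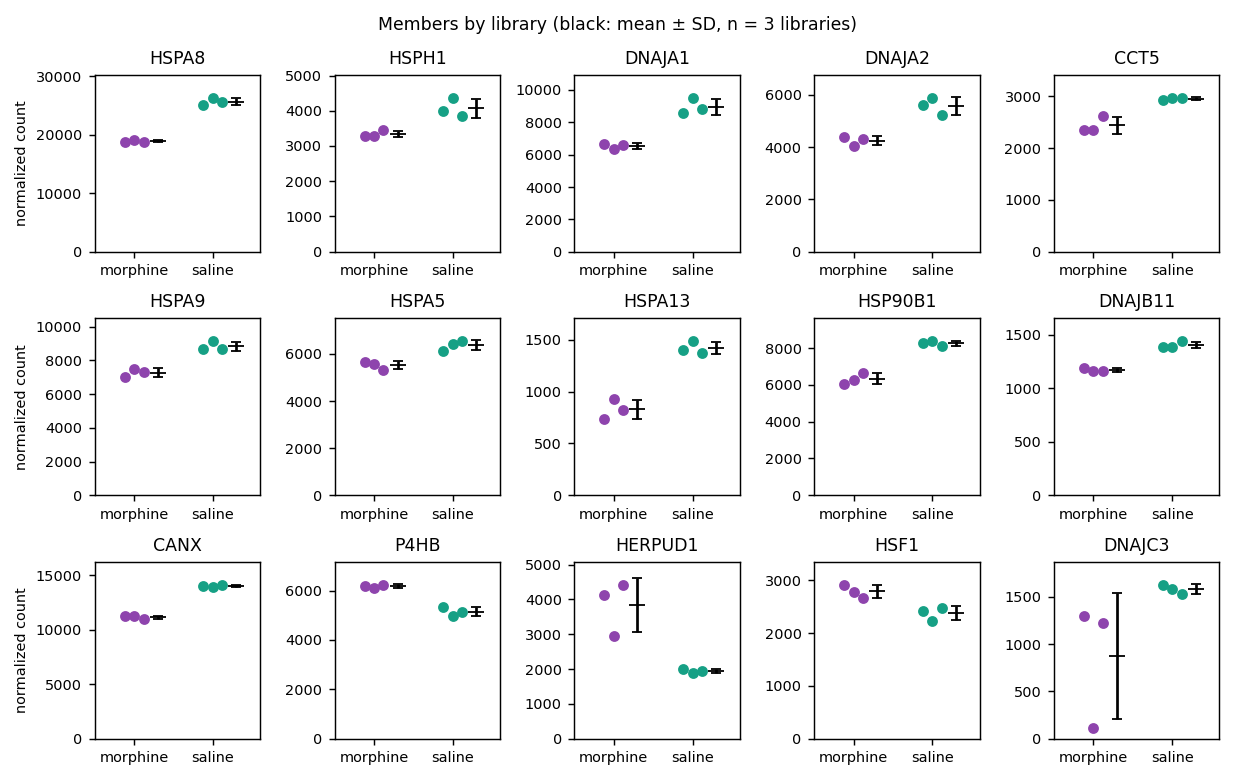
Normalized counts of the 13 called members, HSF1 and DNAJC3, 1 panel each with its own axis from 0, with morphine libraries left of saline libraries and the mean ± SD (n = 3 libraries) in black. Groups do not overlap in any panel, HERPUD1 is lowest of the morphine libraries in replicate 2 (2954), and DNAJC3 has 112 in morphine replicate 2, against 1224 and 1296 in the others.

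All 5 member identifiers of mitochondrial chaperones, 3 of them of HSPE1, had log2 fold changes below 0. So had 8191 of the 16595 genes tested. Only HSPA9 was called, falling, which is 20% of the 5 identifiers, against 27.9% of all genes tested. HSPA9 (ENSMMUG00000005875), which pulls proteins into the mitochondrial matrix and folds them there, had 7007, 7506 and 7316 normalized counts with morphine, against 8658, 9145 and 8691 with saline. The groups were well apart, and HSPA9 fell by 0.28 ± 0.055 (limma adjusted p = 0.0204). It missed the threshold whichever library was left out (limma adjusted p from 0.0511 to 0.0641). HSPD1, the large subunit of the matrix chaperonin, had 4803, 4844 and 5168 normalized counts with morphine and 5454, 6654 and 5192 with saline. Saline replicate 2 stood above the rest, and the groups came close at 5168 and 5192 (log2 fold change -0.22 ± 0.109, limma adjusted p = 0.198). HSPE1, the lid of that chaperonin, had 3 identifiers, of which ENSMMUG00000016547 carried nearly all reads: 2842, 4236 and 4353 normalized counts with morphine, against 5458, 5615 and 5346 with saline. Its log2 fold change was -0.55 ± 0.179 (limma adjusted p = 0.0774). Without morphine replicate 1, the lowest library, the log2 fold change was -0.35 and passed (limma adjusted p = 0.0335), and it passed in edgeR (adjusted p = 0.0225). The other 2 HSPE1 identifiers had between 76.3 and 186 normalized counts with overlapping groups, and HSPD1 and HSPE1 have processed copies that can share reads.

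Of the 15 ER members 5 fell and 2 rose, 46.7%, against 27.9% of all genes tested and 38.4% of genes with a mean of 1000 or more, a level that 13 of the 15 reached. When 1 library was left out 3 or 4 fell and 0 to 2 rose. Of the 7 members tested that are HSP70, HSP90 and J-domain chaperones of the ER, 4 fell and 0 rose, which is 57.1%. With an unadjusted p under 0.05 also 0 rose in limma, and 0 rose in edgeR and in DESeq2. All 7 log2 fold changes were below 0, as were those of 8191 of the 16595 genes tested. That of HYOU1 was close to no change (-0.003 ± 0.0785), and the size of that of DNAJC3 (-1.49 ± 1.01) rested on 1 library. HSPA13 (ENSMMUG00000020091), an HSP70 of the ER with no peptide-binding domain, had 739, 924 and 821 normalized counts with morphine, against 1401, 1485 and 1374 with saline. It fell by 0.78 ± 0.0968 on the log2 scale, to 0.581 of its saline level (limma adjusted p = 0.00635), the largest fall among the called members. HSP90B1 (ENSMMUG00000023469), the HSP90 of the ER, which folds integrins and toll-like receptors, had 6059.8, 6292 and 6653 normalized counts with morphine, against 8278, 8383 and 8138 with saline. Its groups were separated by more than the spread of either, with a fall by 0.38 ± 0.0563 (limma adjusted p = 0.00951).

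HSPA5 (ENSMMUG00000005217), the main HSP70 of the ER and a standard readout of the unfolded protein response, was also lower with morphine. It had 5654, 5590.5 and 5324 normalized counts in morphine libraries, against 6133, 6419.9 and 6542 in saline libraries. The groups did not overlap, and the fall was small, by 0.20 ± 0.0549 (limma adjusted p = 0.0463). HSPA5 missed the threshold whichever library was left out (limma adjusted p from 0.0695 to 0.125) and with upper-quartile scaling (0.0633), but passed in edgeR (adjusted p = 0.00732). DNAJB11 (ENSMMUG00000040181), a J-domain partner of HSPA5, had 1187, 1161 and 1159.7 normalized counts with morphine, against 1385, 1387 and 1438 with saline, both groups being tight. It fell by 0.26 ± 0.0471 (limma adjusted p = 0.016) and did not pass without morphine replicate 2 or 3 (limma adjusted p = 0.0588 and 0.0557). SDF2L1, which forms a complex with DNAJB11, had 238, 186 and 209 normalized counts with morphine and 284, 273 and 235 with saline, with overlap (log2 fold change -0.32 ± 0.122, limma adjusted p = 0.109). HYOU1, the exchange factor of HSPA5, had a log2 fold change of 0.00 ± 0.0785.

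DNAJC3 (ENSMMUG00000040500), a J-domain protein of the ER that also restrains EIF2AK3, was decided by 1 library. It had 1296, 112 and 1224 normalized counts with morphine, against 1627, 1587 and 1527 with saline. Morphine replicate 2 held 123 reads of this gene, where the other 5 libraries held between 1219 and 1649. The log2 fold change of -1.49 ± 1.01 did not pass (limma adjusted p = 0.323). Without morphine replicate 2 it was -0.33 and passed narrowly (limma adjusted p = 0.0476).

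The members that are lectin chaperones and disulfide isomerases of the ER went different ways. CANX (ENSMMUG00000012370), calnexin, the membrane lectin that holds newly made glycoproteins, had 11291, 11234 and 11028 normalized counts with morphine, against 14055, 13933 and 14152 with saline. Spread within groups was small beside the gap, and CANX fell by 0.33 ± 0.0448 (limma adjusted p = 0.00798). Its soluble counterpart CALR had 5755, 6325 and 6126 normalized counts with morphine and 5829, 5546 and 5786 with saline, with overlap (log2 fold change 0.08 ± 0.059, limma adjusted p = 0.334). P4HB (ENSMMUG00000009242), the founding protein disulfide isomerase, had 6203, 6087 and 6237 normalized counts with morphine, against 5323, 4956 and 5129 with saline. P4HB rose by 0.27 ± 0.0515 (limma adjusted p = 0.0196). That rise passed without saline replicate 1 but in none of the other 5 fits without 1 library (limma adjusted p = 0.0632, 0.0592 and 0.0642 without morphine replicate 1, 2 or 3, and 0.0548 and 0.0571 without saline replicate 2 or 3). PDIA3, the isomerase that works with CANX and CALR, and PDIA4 and PDIA6 did not pass and overlapped between groups, with log2 fold changes of 0.07, 0.00 and -0.10.

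HERPUD1 (ENSMMUG00000019189) rose more than any other member tested. It encodes an ER membrane protein that helps assemble the SYVN1 ubiquitin ligase complex, which passes misfolded proteins to the proteasome, and is a target of the unfolded protein response. It had 4123, 2954 and 4423 normalized counts in morphine libraries, against 2009, 1898 and 1956 in saline libraries. Even the lowest morphine library, replicate 2, lay well above all saline libraries. HERPUD1 rose by 0.95 ± 0.164 on the log2 scale, 1.93 fold, with a limma adjusted p of 0.0144. It narrowly did not pass without morphine replicate 1 (limma adjusted p = 0.0505) or saline replicate 2 (limma adjusted p = 0.05), while the edgeR adjusted p was 0.000901. SEL1L, the adaptor of the same ligase complex, went the other way without passing: it had 228, 289.6 and 274 normalized counts with morphine and 424, 291 and 365 with saline (log2 fold change -0.44 ± 0.17, limma adjusted p = 0.116), and DESeq2 called it (adjusted p = 0.0439). The highest morphine value and the lowest saline value of SEL1L all but coincided.

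The sensors of the unfolded protein response did not pass at the RNA level. Of ATF6, ERN1, EIF2AK3 and XBP1, 0 rose and 0 fell in limma, in edgeR and in DESeq2, and 1, ATF6, had an unadjusted limma p under 0.05. ATF6, which is cut in the Golgi to free a transcription factor, had 277, 311 and 310.3 normalized counts with morphine, against 323, 355 and 365 with saline, without overlap (log2 fold change -0.21 ± 0.0796, limma adjusted p = 0.106). ERN1, the kinase and nuclease that splices XBP1, had 294, 235 and 204 normalized counts with morphine and 212, 261 and 237 with saline, with full overlap. EIF2AK3, the ER kinase of translation factor eIF2, had 696, 757 and 603 normalized counts with morphine, against 768, 702 and 676 with saline. XBP1, whose spliced form drives ER chaperone genes, had 933, 736 and 806 with morphine and 867, 773 and 858 with saline. The log2 fold changes of ERN1, EIF2AK3 and XBP1 were 0.03 ± 0.159, -0.06 ± 0.105 and -0.02 ± 0.107, and counts per gene do not tell spliced from unspliced XBP1.

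The 4 ATF4 targets tested among the members did not pass either. Of DDIT3, CHAC1, ASNS and SESN2, 0 rose and 0 fell in limma, also at an unadjusted p under 0.05, and 0 rose and 0 fell in edgeR and in DESeq2. DDIT3, the death-promoting factor CHOP, had 319.9, 377 and 391 normalized counts with morphine and 296, 528 and 444 with saline, where the saline libraries alone spanned the whole range (log2 fold change -0.19 ± 0.233). SESN2, which restrains mTORC1 when amino acids are short, had 647, 723 and 653 normalized counts with morphine, against 466, 631 and 554 with saline. Its groups did not overlap (log2 fold change 0.30 ± 0.127, limma adjusted p = 0.137). ASNS, asparagine synthetase, did not overlap in the other direction (log2 fold change -0.14 ± 0.0633, limma adjusted p = 0.154), and CHAC1, which breaks down glutathione, had -0.13 ± 0.0811. TRIB3, a pseudokinase induced by ATF4 and DDIT3, did not reach the mean needed for a test, with 5, 9 and 0 reads in the morphine libraries and 20, 0 and 5 in the saline libraries, where a count of 0 allows up to 3 reads.

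The rest of the pathway was read from 6 further lists of 204 genes, of which 178 were tested. Of these 39 fell and 13 rose, 29.2%, near the background, and without 1 library 20 to 32 fell and 5 to 8 rose, the fewest falls without morphine replicate 2 (20) and saline replicate 1 (25). In the list of other cytosolic chaperones 13 of 39 fell and 3 rose. That is 41.0%, against 27.9% of all genes tested and 38.4% of genes with a mean of 1000 or more. CDC37L1, a relative of the kinase co-chaperone of HSP90, fell by 0.60, BAG4, an exchange factor of HSP70, by 0.54 and DNAJC13, a J-domain protein of endosomes, by 0.45. The 3 that rose were UNC45A, a myosin chaperone, by 0.46, the heat shock factor HSF4 by 0.42 and DNAJA4 by 0.33. All of these passed in all 6 fits without 1 library, except DNAJA4, which passed in 1 of them (limma adjusted p from 0.0313 to 0.0917).

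**Figure D4:**
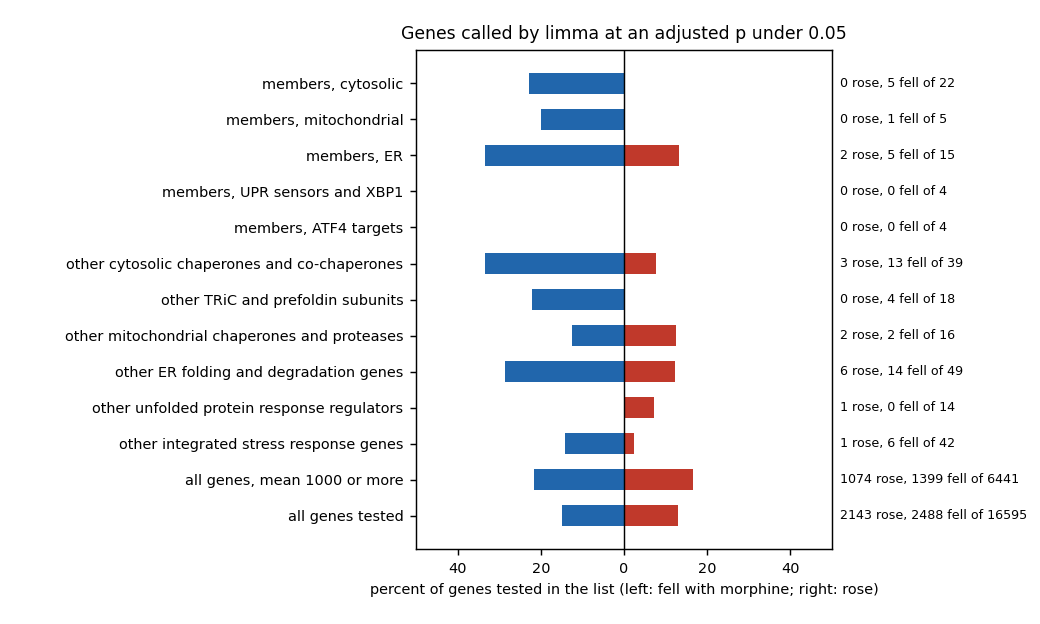
Percent of tested genes in each list that fell (blue, left) or rose (red, right) with morphine in limma at an adjusted p under 0.05, for the 5 compartments of members, the 6 further pathway lists, genes with a mean of 1000 or more and all genes tested; counts stand at the right. The ER and cytosolic lists show more falls than rises, and no member among the sensors of the unfolded protein response or the ATF4 targets was called.

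In the ER, 14 of 49 further folding and degradation genes fell and 6 rose. That is 40.8%, against 27.9% of all genes tested and 38.4% of genes with a mean of 1000 or more. SEC62, of the channel that lets proteins into the ER, had 7498, 7277 and 7692 normalized counts with morphine, against 13548, 13744 and 13421 with saline. SEC62 fell by 0.86 ± 0.0487 (limma adjusted p = 0.00174), and SEC63, the J-domain protein of the same channel, fell by 0.50. The membrane disulfide isomerase TMX3 fell by 0.71. EDEM2, which trims mannose from misfolded glycoproteins, rose by 0.59, while its relative EDEM3 fell by 1.09 (limma adjusted p = 0.00512). SYVN1, the ligase that HERPUD1 and SEL1L serve, rose by 0.35. PRKCSH, a glucosidase subunit that prepares glycoproteins for CANX and CALR, rose by 0.30. Each of these passed in all 6 fits without 1 library except SYVN1, which passed only without morphine replicate 2 (limma adjusted p from 0.0525 to 0.0765 in the other 5). Among 14 other regulators of the unfolded protein response TXNIP rose by 1.27 ± 0.0571 (limma adjusted p = 0.00114), with 6109, 6283 and 6062 normalized counts in morphine and 2573, 2664 and 2426 in saline libraries. TXNIP, which blocks thioredoxin, is also a target of glucose and glucocorticoid signals. It was the only gene of that list called in limma (7.14% of 14), where 0 fell, and edgeR called 3 rises and 0 falls.

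Of 18 other TRiC, prefoldin and tubulin folding genes 4 fell and 0 rose in limma, where 3 rose at an unadjusted p under 0.05, 2 in edgeR and 4 in DESeq2. The share called in limma was 22.2%, against 27.9% of all genes tested. VBP1, a prefoldin subunit, fell by 0.54, PDCL by 0.50 and the TRiC subunit CCT6A by 0.43. The fourth that fell was the TRiC subunit CCT8, by 0.29 (limma adjusted p = 0.0229), which passed in 1 of the 6 fits without 1 library (limma adjusted p from 0.041 to 0.0731). CCT3, CCT4 and CCT7 did not pass. CCT6A did not pass without morphine replicate 2 or saline replicate 2 or 3 (limma adjusted p = 0.0609, 0.0568 and 0.0553). Of 16 further mitochondrial chaperones and proteases 2 fell and 2 rose (25%). YME1L1, a protease of the inner membrane, fell by 0.29 and CLPX by 0.22, while HTRA2 rose by 0.34 and PHB2 by 0.22. CLPX and PHB2 passed in 0 of the 6 fits that leave out a library, with limma adjusted p of 0.0609 to 0.111 for CLPX and 0.0742 to 0.13 for PHB2, and HTRA2 passed only without saline replicate 1 (limma adjusted p = 0.0409). Of 42 other integrated stress response genes 6 fell and 1 rose (16.7%). SLC7A11, the cystine carrier and a target of ATF4, had 99.9, 84.4 and 103 normalized counts with morphine, against 218, 183 and 229 with saline, and fell by 1.13 ± 0.122 (limma adjusted p = 0.00485). The transfer RNA synthetase genes SARS1 and NARS1 fell by 0.45 and 0.32. EIF2B1, a subunit of the exchange factor that eIF2 phosphorylation blocks, rose by 0.31, but in 0 of those 6 fits (limma adjusted p from 0.0611 to 0.107).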

How the data were processed

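The authors deposited a table of normalized count signal for 23191 rhesus Ensembl gene identifiers, 1 column for each of the 6 libraries. The deposited values are multiples of a fixed step in each library, which is what scaling by size factors gives. The same deposited table holds the authors' log2 fold changes, their test statistic (a score) and p-values. Tools listed in the submitters' processing notes are DESeq2 1.18.1, StringTie and Bowtie2 2.1.0, beside the build hg19, with no role stated, so build and strand of counting are not given in the sources used here, and no coordinates are printed. A second deposited table repeats 2332 of these rows and was only compared with the first. Reads were recovered by dividing by that step, and 100% of values then lay within 0.001 of a whole number.

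Symbols came from a gene name table (15436 of 23191 identifiers, 66.6%). Here limma 3.58.1 (R 4.3.3), with group as the only term, was run on log2(value + 1) for genes with a mean of at least 10, and p-values were two-sided and adjusted over all genes tested. Alternatives were TMM and upper-quartile scaling, other filters and pseudocounts, a replicate block, leaving out 1 library at a time, a stricter threshold of 0.01, an intensity trend, edgeR 4.0.16 and DESeq2 1.42.0 on recovered reads, which called 5636 and 6105 genes, and the authors' comparison. The background of genes with a mean of 1000 or more was added after the data had been seen. Values in every library are given for called members, main regulators and chaperones and the largest change of each role, and up to 3 called genes in each direction are named from each pathway list. HSPA4, HSPA4L, DNAJB1, CALR, SDF2L1, SEL1L and HSF2 were given with library values, and HSPB3, HSPB6, CRYAB, CCT8 and EDEM3 were named, outside that rule, after their values had been seen. The members and lists were chosen with earlier results of these data known. Libraries of a group differed by more than sampling noise (chi-square per gene, where noise gives a mean of about 1, had a median of 2.60 to 3.19 and a mean of 17.5 to 23.8 within groups). Promoter motifs were planned but not analysed here.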

Additional observations from a re-analysis of the deposited data

How the results depend on the processing

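No member and no named pathway gene reversed its direction among called values, and all 13 called members also passed with TMM scaling, a minimum mean of 50, pseudocounts of 0.5 and 5, an intensity trend, edgeR, DESeq2 and the authors' deposited table. With upper-quartile scaling 12 of the 13 passed. Sharing only a number, libraries numbered alike in both groups did not deviate together (correlations of deviations across genes -0.0563, -0.00392 and -0.0284), so the replicate block is no pairing: with it 1 member rose and 2 fell, 4 other pathway genes rose and 9 fell, and 681 genes rose and 896 fell in all. Without a filter on low values 1 member rose and 7 fell, 5 other pathway genes rose, and 1363 genes rose and 1630 fell in all. At an adjusted p under 0.01 members gave 0 rises and 5 falls, other pathway genes 3 and 15, and all genes 634 and 898. DESeq2 and the authors' deposited table each gave 4 rises of members. Other pathway genes rose in 28 cases in DESeq2, 24 in edgeR and with the intensity trend, and 27 in the authors' deposited table, against 13 in limma. Leaving out 1 library gave 0 to 2 rises and 6 to 8 falls of members, 5 to 8 rises and 20 to 32 falls of other pathway genes, and 1072 to 1497 rises and 1464 to 1684 falls of all genes. Fits without 1 library have fewer samples. The cause of the other shifts was not tested. Of the members with an identifier, low counts kept only TRIB3 from being tested.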

Other observations

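A few members varied more within a group than between groups. HSPA4 was lowest in morphine replicate 2 (1403 normalized counts) and highest in saline replicate 3 (3509.7), and within each group its highest library was 1.73 and 1.58 times its lowest, in morphine and saline libraries. HSPA12A had 5728, 4192 and 5998 normalized counts in morphine and 3685, 5991 and 5889 in saline libraries, so that morphine replicate 2 and saline replicate 1 stood below the other 4. DDIT3 was lowest of all libraries in saline replicate 1 (296) and highest in saline replicate 2 (528). In DNAJC3 the highest morphine library was 11.6 times the lowest, against 1.07 times in saline libraries. The median coefficient of variation of members was 6.07% in morphine and 5.62% in saline libraries, against 8.26% and 8.86% for all genes tested. Of the 50 member identifiers 38 had a mean of 1000 or more, a level at which all genes had 3.97% in morphine and 4.49% in saline libraries.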
